A study of Mus musculus with 14 samples.

Results

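The KTR mutant of p65 was compared with the empty vector on 6 of the 14 arrays of the series, namely the 3 arrays of KTR cells and the 3 arrays of pTV cells, chosen by their sample titles. Every culture came from p65(-/-) mouse embryonic fibroblasts (MEFs, a 3T3 line), which lack the p65 subunit of NF-κB but still carry the genes of its other subunits. KTR cells received myc-tagged p65 in which lysines 310, 314 and 315 are arginines, pTV cells received only the lentiviral vector of that name, and wild type cells received the unmutated myc-tagged p65. All were starved overnight and then kept for 3 h with mouse TNFα at 30 ng/ml, except that a further set of wild type cultures was taken at 0 h, without TNFα. Each of these 4 groups had 3 biological replicates, and the 3 arrays of wild type cells at 3 h and the 3 at 0 h served here as points of reference. The 2 arrays of the K314/315R mutant, in which only lysines 314 and 315 are replaced, lay on a slide of their own and were not used. The complemented cells were blasticidin-selected pools, 1 pool per construct, so a property of a pool, including the amount of p65 it made, and a property of its construct cannot be told apart. Untreated KTR and pTV cells were not analysed here, and a difference between KTR and pTV cells therefore does not separate the basal state from the response to TNFα.

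NF-κB is a family of dimeric transcription factors that are held in the cytoplasm by IκB proteins. TNFα binds its receptor and activates the IκB kinases, which mark the inhibitors for degradation, and dimers with p65 then enter the nucleus and bind κB sites in the promoters of genes for cytokines, chemokines, adhesion molecules, acute phase proteins, survival factors and the inhibitors themselves. The acetyltransferase p300 acetylates lysines of p65, and an arginine in their place keeps the positive charge but cannot be acetylated. In fibroblasts this pathway is known for turning structural cells into a source of chemokines and of matrix-degrading enzymes, and NF-κB also takes part in the production of interferon β, whose own target genes are bound by STAT and IRF factors.

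Levels are given as the log2 of the Cy3 intensity of a probe minus that of the array's 75th percentile, so that a level of 0 equals that percentile and a difference of 1 is 2-fold. On the 6 KTR and pTV arrays the 75th percentile lay between 1011 and 1247 intensity units, and 49.9 to 57.7% of the spots were well above background. Arrays of a group correlated with r = 0.984 to 0.995 across probes. Outlier spots were left out, 75 to 326 per KTR array and 6 to 108 per pTV array. Slides 1 to 3 each held 1 array of every group, and the replicate number is the slide. The place on the slide was the same for a group on all slides (1 for KTR and 4 for pTV), so place and group cannot be told apart. Of 9 fibroblast markers on the array, 8 were above background on each of the 6 arrays, with summed levels of 9.31 to 9.67 in KTR and 9.33 to 9.65 in pTV cells, and Fap was not. The defining markers of other cell types, except epithelial ones, were mostly below background on all 3 KTR arrays. This held for 6 of 8 macrophage, 6 of 6 endothelial, 4 of 6 lymphocyte, 4 of 5 skeletal muscle and 3 of 7 epithelial markers. On the 3 pTV arrays it held for 6, 5, 4, 4 and 2 of them. The keratin genes Krt5, Krt8 and Krt19 and the lymphocyte marker Cd3e passed background on each of the 6 arrays. Krt18, Csf1r and Myod1 did so on each pTV array but not on each KTR array. Summed epithelial levels were −0.03 to 0.19 in KTR and 0.20 to 0.59 in pTV cells, without overlap. Of 5 epithelial markers tested, 1 was called lower in KTR than in pTV cells. In cultures measured in bulk, fewer cells of a kind and less RNA per cell cannot be told apart.

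The gene of p65 itself, Rela, had 2 probes, and the sources used here do not say whether they lie in the deleted or in the introduced sequence. The brighter one read 1.39, 1.54 and 0.79 on the KTR arrays and 1.00, 1.19 and 1.34 on the pTV arrays. The groups overlapped, and the difference was 0.06 ± 0.17 (log2, SE; limma adjusted p = 0.812). The dimmer probe read −2.26, −2.16 and −1.99 in KTR and −2.84, −2.53 and −2.31 in pTV cells, without overlap, a difference of 0.42 ± 0.08 (adjusted p = 0.00626) that is within 2-fold. These probes thus do not check the labels.

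KTR cells differed from pTV cells at many genes, and in both directions. Of 22028 probes tested, 734 (3.33%) were more than 2-fold higher in KTR than in pTV cells at a limma adjusted p under 0.05, and 311 (1.41%) were lower. They carry 559 and 243 gene names. The median fold was 3.13 among the probes that were higher and 2.49 among those that were lower, whereas the median difference over all tested probes was 0.02 (log2, quartiles −0.19 and 0.20). Of all called probes, 278 higher and 44 lower ones were over 4-fold, 112 and 6 over 8-fold and 57 and 0 over 16-fold, folds that are inexact where a group was at the detection limit. Many of the genes were close to the detection limit in 1 of the groups. Among the higher probes, 174 had no pTV array well above background and 23 had no KTR array so, and 451 were measured on all 6 arrays. Among the lower probes, 99 had no KTR array above background and 154 were measured on all 6 arrays. Of the probes so measured, 119 higher and 14 lower ones were over 4-fold, 36 and 3 over 8-fold and 14 and 0 over 16-fold. Of the 722 higher probes with a value on every slide, 721 were higher on each of the 3 slides, with medians of 1.67, 1.66 and 1.63 (log2), and all 308 such lower probes were lower on each slide, with medians of −1.41, −1.27 and −1.39. With the background corrected by normexp instead of by the scanner software, 240 probes were called higher and 47 lower, and among probes above background on all 12 arrays of the fit 450 and 149. The same test called 793 probes (3.6%) higher and 329 (1.49%) lower in wild type than in pTV cells. That comparison shares the pTV arrays with the one of KTR cells, and no overlap between the lists of genes is given.

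**Figure D1:**
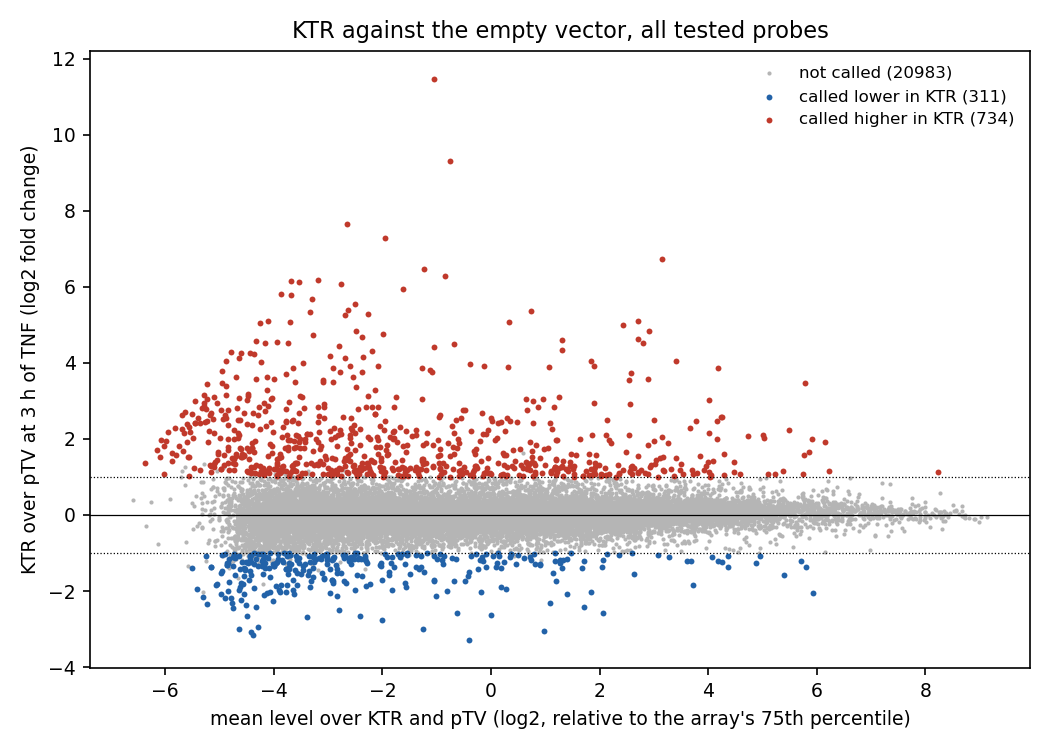
Difference between KTR and pTV cells at 3 h of TNFα (log2, vertical axis) against the mean level of each tested probe over both groups (log2 relative to the array's 75th percentile, horizontal axis), each point being 1 probe and coloured points being the 734 called higher and the 311 called lower. The higher probes reach far larger differences than the lower ones.

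Some of the largest differences were at genes with no pTV array above background. Saa3, serum amyloid A 3, an acute phase protein, had levels of 4.86, 4.23 and 4.95 on the KTR arrays, while no pTV array was above background (−6.83, −6.62 and −6.92). KTR cells exceeded pTV cells at least 694-fold (adjusted p = 1.76e-08). Such a lower limit is given wherever no array of the dim group was well above background. Each dim array enters it with its own reading or with the dimmest signal that was called above background there, whichever is greater. The limits hold for the main processing only. Under other settings the fitted difference fell below them, as low as 7.70 (log2) for Saa3 and 4.43 for Icam1. Of genes named below, it fell to 2.55 for Mmp13, 2.29 for Cfb, 1.64 for Mpa2l and 1.21 for Ifi44. The highest limma adjusted p of these was 0.115, 0.132, 0.498 and 0.357, so that each lost its call in a setting. Ch25h, cholesterol 25-hydroxylase, read 4.25, 3.51 and 3.94 in KTR and −5.32, −5.81 and −5.06 in pTV cells, at least 404-fold apart. Icam1, a ligand for leukocyte integrins, read 1.85, 1.91 and 1.28 against −5.61, −5.85 and −5.34, at least 86.9-fold. Ccl20, a chemokine for cells with the receptor CCR6, read 1.18, 1.39 and 0.97 against −6.62, −6.40 and −6.37, at least 61.4-fold. On all 3 KTR arrays each of these genes was bright, and on all 3 pTV arrays it was at the detection limit. Oas1f, of the oligoadenylate synthetase family, completed the 5 highest limits with at least 35.1-fold.

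Among genes measured on all 6 arrays, complement component C3 differed most. Its levels were 6.79, 6.28 and 6.45 in KTR and 0.10, −0.66 and −0.11 in pTV cells, a difference of 6.73 ± 0.13 (log2, SE; adjusted p = 1.97e-08). Saa1 came next and read 3.24, 3.25 and 3.80 in KTR and −2.49, −1.86 and −1.49 in pTV cells (5.37 ± 0.23), and the death receptor gene Fas read 5.57, 4.89 and 5.33 and 0.64, −0.42 and 0.23 (5.11 ± 0.12). Slpi, a secreted inhibitor of leukocyte proteases, read 2.84, 2.54 and 3.23 and −2.14, −2.45 and −2.04, a difference of 5.08 ± 0.13. In all of these the lowest KTR array lay more than 4 units above the highest pTV array. The 6 genes that followed were the guanylate-binding protein gene Gbp2 (4.98), the pentraxin gene Ptx3 (4.83, without the third KTR array, whose spot was an outlier), Parp14 (4.61), Tnfaip2 (4.52), the ubiquitin-like Isg15 (4.49) and Gbp4 (4.33, current symbol Gbp3). Their adjusted p-values lay between 5.89e-08 and 1.72e-05.

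**Figure D2:**
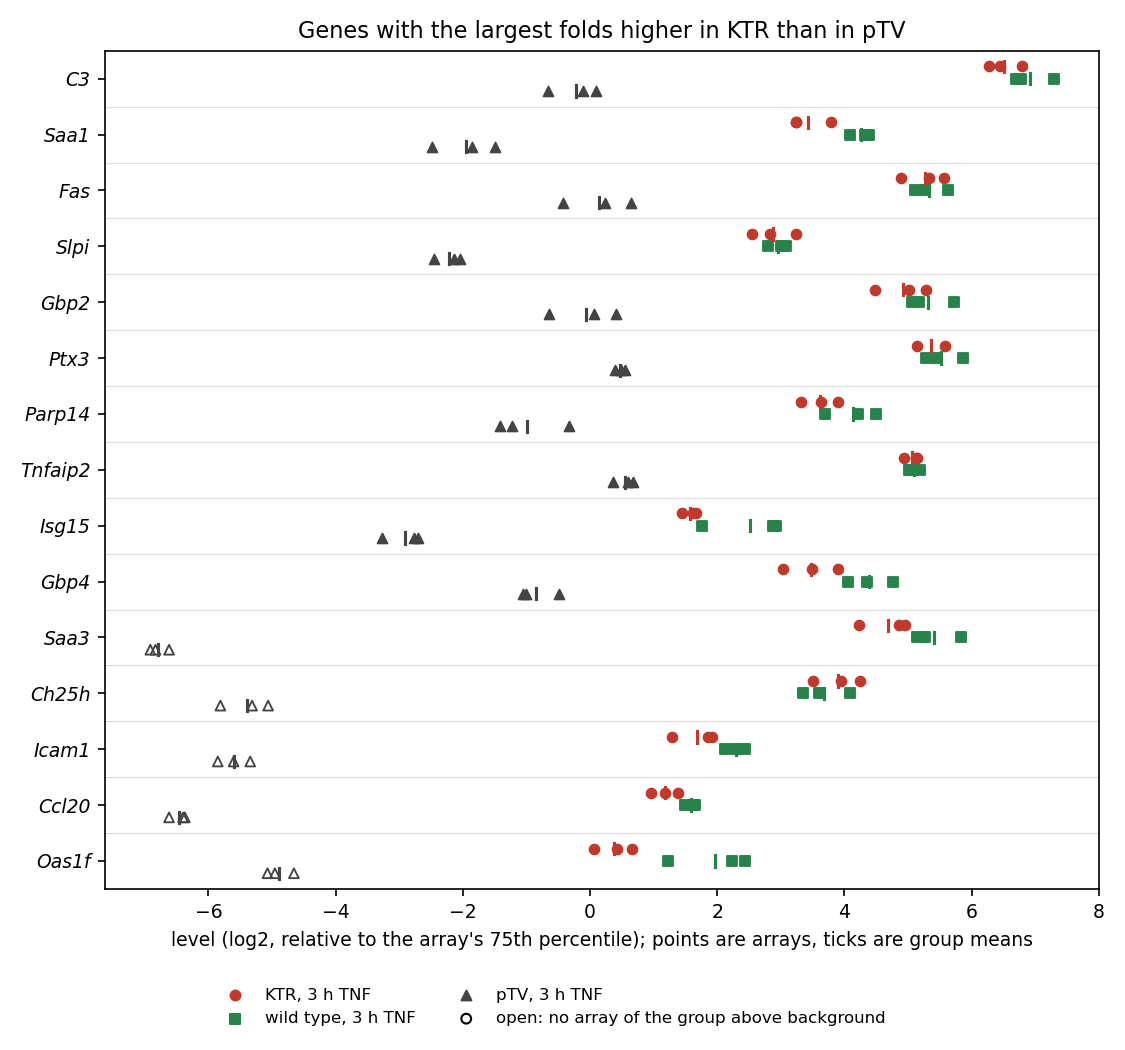
Levels (log2 relative to the array's 75th percentile) of the 15 genes with the largest differences in favour of KTR cells, on each KTR, wild type and pTV array at 3 h of TNFα, ticks being group means. At every gene the 3 pTV arrays lie far below the KTR and the wild type arrays.

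The lists of pathway genes are described by their counts and medians, with the brightest tested probe for each gene. Of the 13208 genes so represented, 531 (4.02%) were higher and 197 (1.49%) lower in KTR than in pTV cells, with a median difference of 0.04. Of 351 genes in 21 lists, 146 were higher and 12 lower (82 and 5 with normexp). The lists were made up with knowledge of NF-κB targets and of earlier results of these data, so that their shares describe the lists only.

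**Figure D3:**
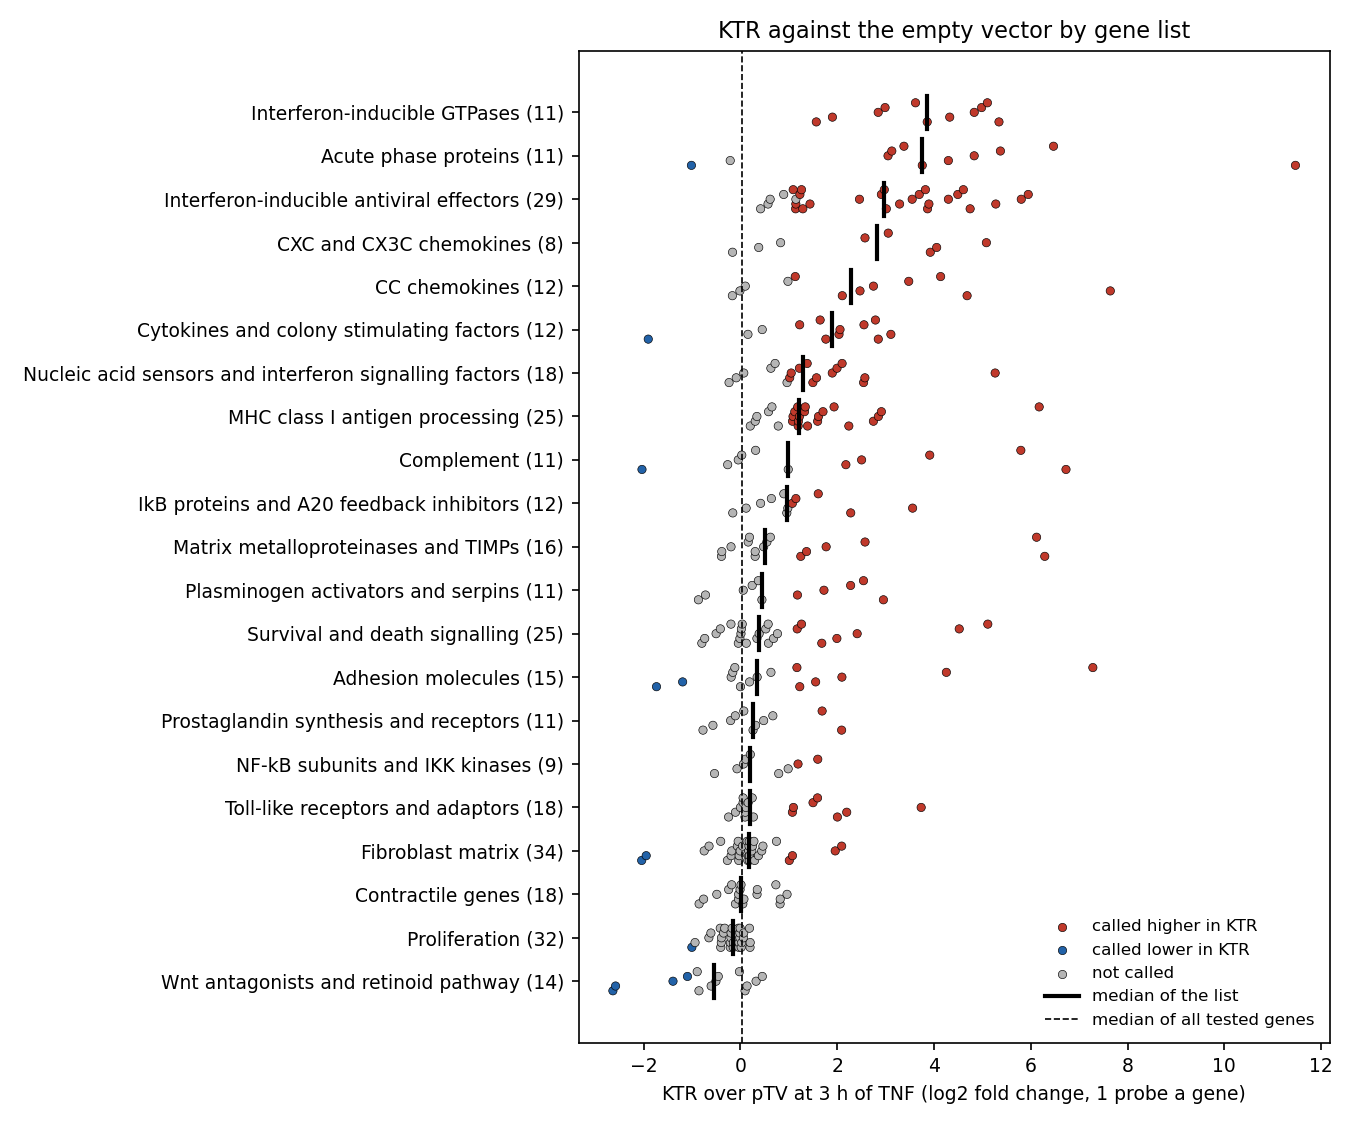
Differences between KTR and pTV cells (log2, horizontal axis) for the genes of each list, each point being 1 gene by its brightest probe, bars being list medians and the broken line the median of all tested genes. GTPases, acute phase proteins, antiviral effectors and chemokines lie farthest to the right, and contractile and proliferation genes lie around 0.

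Some components of the pathway itself were higher in KTR cells. Of 9 genes for NF-κB subunits and IκB kinases, 2 (22.2%) were higher in KTR than in pTV cells, with a median difference of 0.20. These were Relb, whose protein pairs with p52, at 3.82, 3.64 and 3.82 against 2.58, 2.49 and 2.65 (1.19 ± 0.05; adjusted p = 1.56e-06), and the IκB kinase relative Ikbke (1.60). Nfkb1 (0.99) and Nfkb2 (0.79), the genes of p50 and p52, stayed within 2-fold although their arrays did not overlap. Of 12 IκB and A20 genes, 5 (41.7%) were higher and 0 lower (median 0.97). Tnfaip3 encodes A20, which removes ubiquitin from signalling proteins below the TNF receptor. It read 4.52, 4.06 and 4.36 in KTR and 0.92, 0.55 and 0.80 in pTV cells (3.56 ± 0.09; adjusted p = 6.7e-08). Tnip1, an A20 partner, read 4.68, 4.86 and 4.91 against 2.37, 2.53 and 2.70 (2.28 ± 0.07), and Bcl3 differed by 1.15. In all 3 genes every KTR array was above every pTV array, as at 16.7% of all tested probes. The gene of IκBα, Nfkbia, was bright in both groups, at 6.83, 6.63 and 6.51 and 5.72, 5.69 and 5.88, and its difference of 0.90 ± 0.10 was within 2-fold. Nfkbie, the gene of IκBε, was higher by 1.07 ± 0.24 (adjusted p = 0.0112), and its KTR arrays spread from 2.11 to 3.13. Its differences on slides 1 to 3 were 1.79, 1.21 and 0.22. The call was lost in 5 of 20 settings of the processing, with a difference down to 0.79 and a limma adjusted p up to 0.708.

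The promoters of the inhibitor genes are shown because 7 of the 10 with a sequence held a match to the κB consensus, the binding sequence of NF-κB dimers. Windows of 250 bases before to 50 bases after the annotated start were taken from RefSeq on the mouse build GRCm38.p6 and searched on both strands. Of the genes higher in KTR than in pTV cells, 529 could be tied to a gene identifier and 397 had a window, of which 64 (16.1%) held a κB match. The share was 12.4% (20 of 161) for the lower genes, 6.34% (599 of 9451) for all tested genes and 5.14% for all 27025 genes of the table. A match is a description of the letters and not a bound site. The bases before the start of Nfkbie (chr17:45555450-45555699, plus strand) and of Tnip1 (chr11:54962941-54963190, minus strand) follow 5′ to 3′, with the κB matches in capitals, those of Tnip1 being 3 overlapping matches in 1 run.
Nfkbie: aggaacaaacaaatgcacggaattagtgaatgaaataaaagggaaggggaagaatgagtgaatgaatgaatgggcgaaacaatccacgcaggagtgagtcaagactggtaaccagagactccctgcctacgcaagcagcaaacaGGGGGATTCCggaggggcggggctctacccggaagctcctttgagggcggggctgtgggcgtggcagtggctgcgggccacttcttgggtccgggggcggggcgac
Tnip1: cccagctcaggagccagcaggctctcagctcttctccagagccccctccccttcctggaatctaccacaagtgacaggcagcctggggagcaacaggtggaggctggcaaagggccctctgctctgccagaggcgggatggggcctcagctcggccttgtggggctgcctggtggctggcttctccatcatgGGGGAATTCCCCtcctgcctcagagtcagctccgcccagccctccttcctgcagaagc

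Most of the chemokine and cytokine genes tested were higher in KTR than in pTV cells. Of 8 CXC and CX3C chemokine genes, 5 were higher and 0 lower (median 2.81), and of 12 CC chemokine genes 8 were higher and 0 lower (median 2.29). Cxcl5, a neutrophil attractant, read 5.61, 5.15 and 5.54 in KTR and 1.85, 1.19 and 1.09 in pTV cells (4.05 ± 0.12). Cxcl10, which attracts T cells through CXCR3, read 3.89 and 3.82 on the first and the third KTR array, the spot of the second being an outlier, and 0.00, −0.31 and 0.14 on the pTV arrays (3.92 ± 0.19; adjusted p = 2.6e-05). Ccl5 read 7.66, 7.25 and 7.67 against 4.08, 3.65 and 4.42 (3.48 ± 0.10). All 3 were above background on every pTV array and 11.2- to 16.6-fold brighter on the KTR arrays. Ccl2, an attractant of monocytes, read 8.12, 7.49 and 7.41 in pTV cells and 8.98, 8.67 and 8.76 in KTR cells (1.13 ± 0.09), with 1 KTR array saturated, so that the difference may be understated. Cxcl1 did not pass, since its KTR arrays spread over 6.39, 6.17 and 3.85 around the pTV arrays at 5.03, 5.13 and 5.11 (0.38 ± 0.47; adjusted p = 0.576). The third KTR array was thus the low one for Cxcl1, while the other two exceeded every pTV array. Of 12 cytokine and colony stimulating factor genes, 9 were higher and 1 lower (median 1.90). Il6 read 2.67, 2.12 and 2.95 in KTR and −0.02, −0.82 and 0.03 in pTV cells (2.85 ± 0.16), Csf1, the macrophage growth factor, differed by 1.65 and Il15, which sustains natural killer cells, by 3.11. The exception was Il11, a cytokine of the interleukin 6 family, at −0.91, −1.0 and −0.42 in KTR and 1.42, 0.69 and 1.28 in pTV cells (−1.91 ± 0.14; adjusted p = 2.94e-05).

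Of 11 acute phase genes 9 were higher and 1 lower (median 3.76), and of 11 complement genes 5 were higher and 1 lower (median 0.99). Hp, haptoglobin, read 2.13, 1.40 and 2.49 in KTR cells and −4.37, −4.63 and −4.39 in pTV cells, where 2 of 3 arrays were above background. Lcn2, which binds bacterial siderophores, differed by 3.76 and Cp, the copper carrier ceruloplasmin, by 3.05. Besides C3, the genes of the early and alternative pathways C1s (3.91) and Cfb were higher. Cfb, complement factor B, read −0.62, −1.02 and −0.73 in KTR and −6.62, −6.37 and −6.76 in pTV cells, of which none was above background, and was at least 15.7-fold higher. Cfi, a protease that inactivates C3b, went the other way, since it read −2.05, −2.64 and −3.59 in pTV cells and was above background on no KTR array (−4.52, −4.69 and −5.18, at least 2.82-fold lower).

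Among 16 genes for matrix metalloproteinases and their inhibitors, 6 were higher and 0 lower (median 0.51). Mmp3, stromelysin 1, read 2.42, 1.92 and 2.56 in KTR against −3.94, −4.77 and −3.26 in pTV cells. Mmp13, a collagenase, read −0.55, −0.74 and −0.14 against −6.82, −5.83 and −7.14, at least 19.4-fold, and Mmp10, stromelysin 2, read −1.27, −1.88 and −1.18 against −3.84, −4.64 and −3.56 (2.58 ± 0.15; adjusted p = 9.07e-06). All 3 were far above the pTV arrays on every KTR array. The constitutive Mmp2 (0.55), Mmp14 (0.48) and Timp2 (−0.19) stayed within 2-fold. Of 15 adhesion genes, 6 were higher and 2 lower (median 0.35). Vcam1, a ligand of integrin α4β1, read 5.91, 6.12 and 6.15 against 3.69, 3.92 and 4.27 (2.10 ± 0.10), and Mcam was lower at 0.06, 0.42 and 0.50 against 1.88, 2.06 and 2.23 (−1.74 ± 0.07). None of the 10 adhesion genes, 11 metalloproteinase and inhibitor genes and 6 complement genes with a promoter window held a κB match in it. With a share of 6.34% among all tested genes, counts this small cannot show a lack of κB sites. Of 18 genes for Toll-like receptors and their adaptors, 7 were higher (median 0.20), with the largest difference at Tlr2, the receptor for bacterial lipoproteins (4.34, 4.35 and 4.66 against 0.44, 0.73 and 0.97, 3.73 ± 0.12), and almost none at Tlr4 (0.00). Of 11 plasminogen activator and serpin genes 5 were higher (median 0.44), among them Serpina3g (2.96).

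Survival genes were divided. Of 25 genes for survival and death signalling, 7 were higher and 0 lower (median 0.39). Besides Fas and Tnfaip2 these included Sod2, the mitochondrial superoxide dismutase, at 7.09 and 6.74 on the 2 KTR arrays with a value and 4.84, 4.95 and 4.90 in pTV cells (1.99 ± 0.10), and the inhibitors of apoptosis Birc3 (1.26) and Birc2 (1.17). The genes of the anti-apoptotic proteins c-FLIP (Cflar, 0.01), Bcl-xL (Bcl2l1, 0.12) and Mcl-1 (Mcl1, 0.02) had adjusted p-values from 0.438 to 0.98. Bcl2 lay lower in KTR cells within 2-fold, at −0.33, 0.11 and −0.20 against 0.50, 0.72 and 0.58 (−0.74 ± 0.09; adjusted p = 0.000473).

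Interferon-inducible genes were the most numerous among the list genes that passed. The name stands here for 4 lists as a whole, and no gene was tested with interferon. Of 83 genes in 4 lists, 66 were higher in KTR than in pTV cells and 0 lower. This comprised 24 of 29 antiviral effectors (median 2.97), 12 of 18 nucleic acid sensors and interferon signalling factors (median 1.30), 11 of 11 interferon-inducible GTPases (median 3.86) and 19 of 25 genes of MHC class I antigen processing (median 1.22). Isg15, a ubiquitin-like modifier, read 1.66, 1.61 and 1.45 in KTR and −2.71, −3.27 and −2.77 in pTV cells. Ifit1, which binds viral RNA, read 0.66, 0.89 and 0.83 against −2.79, −3.48 and −2.82 (3.82 ± 0.34; adjusted p = 7.43e-05). The transcription factor gene Irf1 read 5.56, 5.36 and 5.68 against 2.94, 2.99 and 2.95 (2.57 ± 0.09). In each, the arrays of KTR cells were all above those of pTV cells by more than 2 units. Stat2 (1.5) and Irf9 (Isgf3g on the array, 1.57), which carry the interferon signal, were moderately higher, while Irf3 (−0.24) and Mavs (D430028G21Rik, −0.09) were within 2-fold. Of the GTPases, Igtp read 2.21, 2.14 and 2.46 against −0.48, −1.02 and −0.64 (2.99 ± 0.19), and Mpa2l (current symbol Gbp6) read −0.33, −2.02 and −2.33 against −6.63, −6.42 and −6.94, at least 9.19-fold. For Mpa2l the second and the third KTR array lay below the first by more than 1.5 units. Of the genes for antigen presentation, the immunoproteasome subunit gene Psmb8 was at least 25.2-fold higher, H2-K1, a class I heavy chain, read 4.11, 4.04 and 3.77 against 2.19, 1.91 and 2.01 (1.94 ± 0.09), and B2m, its light chain, differed by 1.08. Class I heavy chain genes are near-identical copies, and their probes may bind transcripts of several. Calr, Canx and Pdia3, chaperones of many glycoproteins, stayed within 2-fold. The antiviral Sp100 is counted among the higher genes although no KTR and no pTV array was above background, and no fold is given for it.

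The promoters of these genes are shown for a second pattern of letters, GAAA followed after any 2 bases by another GAAA, a core that STAT and IRF complexes are known to bind in interferon-inducible genes. It stood in 55 of 397 windows (13.9%) of genes higher in KTR than in pTV cells, in 4 of 161 (2.48%) of lower genes, in 3.68% of all tested genes and in 3.99% of the table. Of the GTPase genes 7 of 8 with a window held it, and of the antiviral effectors 12 of 22. The bases before the starts of Isg15 (chr4:156200819-156201068, minus strand), Igtp (chr11:58199306-58199555, plus strand) and Cxcl10 (chr5:92348890-92349139, minus strand) follow with matches in capitals. Those of Isg15 and Igtp are pairs of GAAA, and Cxcl10 has 1 such match followed by 2 κB matches.
Isg15: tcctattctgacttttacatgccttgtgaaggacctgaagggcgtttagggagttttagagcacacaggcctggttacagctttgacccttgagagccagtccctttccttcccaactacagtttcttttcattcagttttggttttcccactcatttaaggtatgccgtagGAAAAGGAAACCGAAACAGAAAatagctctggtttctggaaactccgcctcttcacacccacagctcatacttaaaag
Igtp: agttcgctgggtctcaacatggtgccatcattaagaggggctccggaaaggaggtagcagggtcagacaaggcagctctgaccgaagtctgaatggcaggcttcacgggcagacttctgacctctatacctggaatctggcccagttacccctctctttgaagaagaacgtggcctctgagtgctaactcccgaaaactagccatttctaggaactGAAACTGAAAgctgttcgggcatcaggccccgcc
Cxcl10: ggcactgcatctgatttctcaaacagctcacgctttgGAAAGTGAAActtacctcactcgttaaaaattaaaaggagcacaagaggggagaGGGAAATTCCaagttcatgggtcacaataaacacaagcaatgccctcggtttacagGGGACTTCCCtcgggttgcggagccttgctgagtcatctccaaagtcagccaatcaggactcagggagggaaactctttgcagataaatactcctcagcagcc
In the window of Isg15, 3 overlapping matches form 1 run of capitals. Among the 12095 windows of tested genes, both patterns occurred together in 24 and overlapped in 1.

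Not all genes that differed between KTR and pTV cells responded to TNFα in wild type cells. The response was read from wild type cells at 3 h against 0 h, neither of which is a group of the comparison of KTR with pTV cells, although all 12 arrays shared the filter and the estimate of the spread. Over 1.8-fold at an adjusted p under 0.05, 279 probes (1.27% of those tested) were raised and 129 (0.586%) lowered by TNFα. Of the 279 raised probes, 166 (59.5%) were higher in KTR than in pTV cells, 11 (3.94%) were lower and 102 (36.6%) were neither, and their median difference was 1.54 (log2). Conversely, those 166 are 22.6% of the 734 higher probes, 9 were lowered by TNFα, and 559 were neither. The median fold of KTR over pTV was 5.21 for the raised and 2.78 for the probes not called for TNFα. Of the 311 lower probes, 11 (3.54%) were raised and 16 (5.14%) lowered by TNFα. Single genes show both patterns. In wild type cells TNFα raised Il6 and Tnfaip3 by 1.98 and 1.94 (log2). C3, with the largest measured difference between KTR and pTV cells, moved by only 0.10 (adjusted p = 0.635), and Isg15 by 0.42. Of the 83 interferon-inducible genes, 8 were raised by TNFα, against 18 of 44 genes for feedback inhibitors, chemokines and cytokines. Some of the genes that TNFα raised there were not higher in KTR than in pTV cells. Ptgs2, the inducible cyclooxygenase, was raised by 2.08 and read 2.00, 2.28 and 2.80 in KTR and 3.04, 2.65 and 3.10 in pTV cells. Ier3, an early response gene, was raised by 1.44 and read 2.98, 2.98 and 3.11 against 3.79, 3.81 and 3.86 (−0.80 ± 0.08; adjusted p = 0.000132). In Ptgs2 and Ier3 the means of pTV cells were the higher ones, within 2-fold. Both genes were chosen after their values were seen.

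KTR cells were also set against wild type cells at 3 h, in a comparison that shares the KTR arrays with the one above. Over 1.8-fold at an adjusted p under 0.05, 31 of 22028 probes (0.141%) were higher and 72 (0.327%) lower in KTR than in wild type cells. The counts fell to 7 and 33 without the slides as a block. With normexp, or with the 6 KTR and wild type arrays alone, they were 0 and 0. With 1 array left out they ranged from 14 to 62 and from 35 to 139. The median difference over all tested probes was 0.06. For the inhibitors, chemokines and cytokines, 44 genes in all, the median difference between KTR and wild type cells was −0.06. The KTR mean was below the wild type mean for 27 of them, against 35.0% of all tested genes, and 2 were called lower. Tnfaip3 read 4.45, 4.12 and 4.24 on the wild type arrays, 0.04 from the KTR arrays (SE 0.09; adjusted p = 0.797). Il6 read 2.67, 2.22 and 2.39 in wild type cells, a difference of 0.16, and Ccl2 read 9.02, 8.62 and 8.62, a difference of 0.05 that is limited by 1 saturated array in each group. In all 3 the arrays of both groups overlapped. The genes called lower were Nfkbie and Tnip3 (9030611K07Rik on the array). Nfkbie read 3.90, 4.02 and 3.95 on the wild type arrays, all above the KTR arrays (3.13, 2.89 and 2.11), and the difference was −1.24 (SE 0.24; adjusted p = 0.0422). Tnip3, another A20 partner, read −2.66, −2.77 and −2.67 in wild type and −3.63, −4.24 and −4.80 in KTR cells, of which 1 array was above background.

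The interferon-inducible genes lay lower in KTR than in wild type cells as a group. The KTR mean was below the wild type mean for 74 of 83 genes (89.2%), against 35.0% of all tested genes, with a median difference of −0.51. For 42 of them the highest KTR array was below the lowest wild type array, which held for 5.24% of all tested probes. Of the 83, 11 were called lower and 0 higher. The third wild type array stood apart, being the lowest of the 3 for 71 of the 83 genes (85.5%) and for 26.9% of all tested probes, and the median level of these genes was 1.93, 1.97 and 1.3 on the wild type arrays. Without it the KTR mean was below for 76 genes, and 6 were called lower. Leaving out the first or the second gave 70 and 72 genes below, with 3 called lower in each case. The number called also depends on the fit, since only 2 were called without the slides as a block and 0 when the spread was estimated from the 6 KTR and wild type arrays alone or the background was corrected by normexp. By list, the median difference was −0.87 for the antiviral effectors (28 of 29 below wild type, 8 called lower), −0.85 for the GTPases (11 of 11 below, 0 called), −0.43 for MHC class I processing (21 of 25 below, 2 called) and −0.21 for sensors and signalling factors. Ifi44 read −1.39, −1.64 and −2.78 in KTR, 0.38, 1.12 and −0.67 in wild type and −5.52, −6.02 and −5.36 in pTV cells. The difference from wild type was −2.21 (SE 0.39; adjusted p = 0.0308), and KTR cells still exceeded pTV cells at least 7.09-fold. Oas1a read −0.71, −0.89 and −1.29 in KTR and 1.07, 1.00 and −0.28 in wild type cells (−1.56; adjusted p = 0.0314), and Bst2, which tethers budding virus, read 4.06, 4.06 and 3.96 and 5.20, 5.22 and 4.46 (−0.94; adjusted p = 0.0489). In these genes the KTR arrays lay between those of the other 2 groups, and for Isg15 the third wild type array (1.76) lay just above the first KTR array (1.66). The difference from wild type was −0.02 for Irf1. Complement genes had a median of −0.38, with Cfb called lower (0.46, 0.18 and −0.23 in wild type, −0.93; adjusted p = 0.0474), and acute phase genes of −0.25 with none called.

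**Figure D4:**
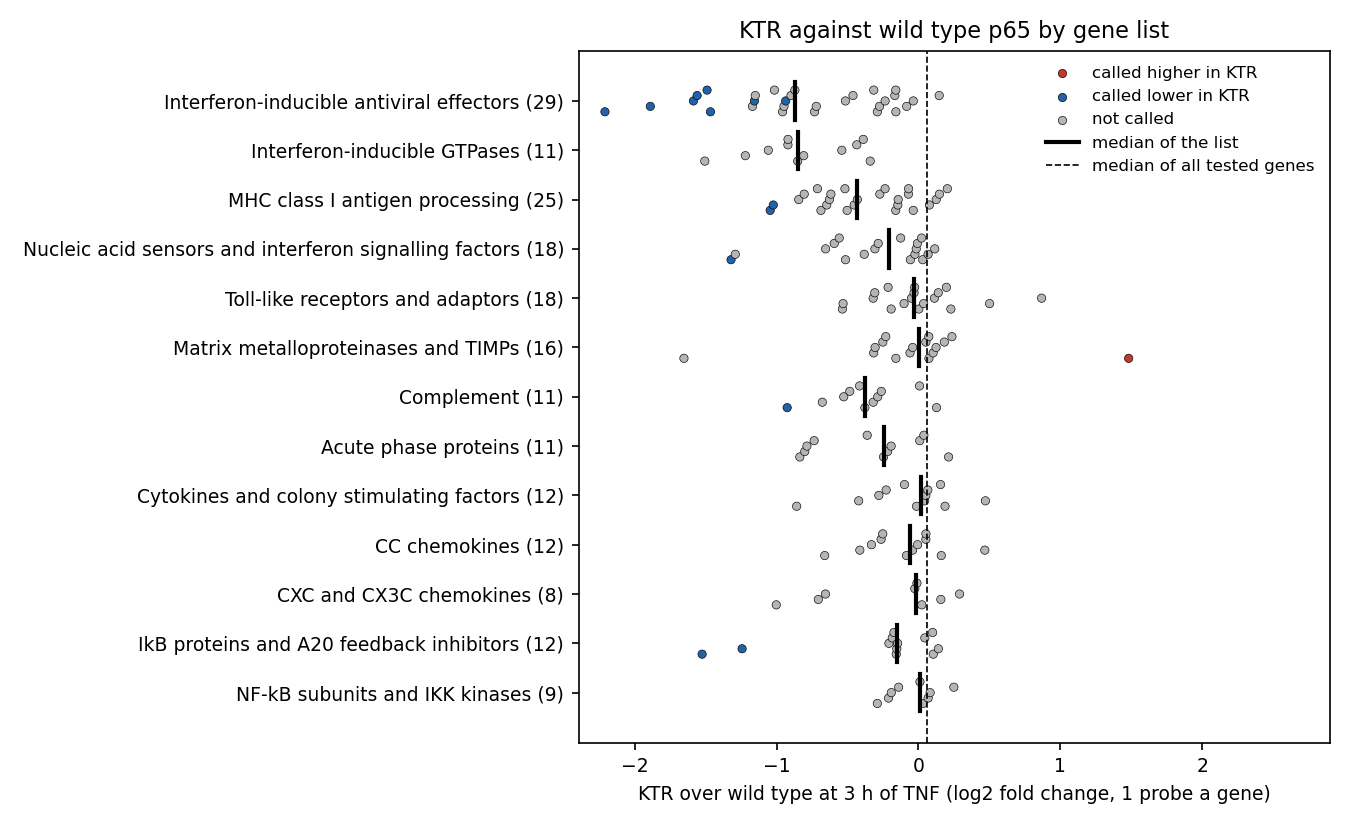
Differences between KTR and wild type cells at 3 h of TNFα (log2, horizontal axis) for the genes of 13 lists, each point being 1 gene by its brightest probe, bars being list medians and the broken line the median of all tested genes, 0.06. The 4 interferon-inducible lists and complement lie mostly to the left of the line, whereas cytokines and chemokines lie around it.

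A few genes exceeded pTV cells in wild type but not in KTR cells and were called lower in KTR than in wild type cells, in comparisons that share arrays. Dennd2d read −4.35, −4.63 and −4.54 in KTR, −4.20, −4.80 and −4.66 in pTV and −2.70, −2.84 and −3.00 in wild type cells. Plac8 read −4.30, −3.88 and −4.46 in wild type cells and was above background on no KTR and no pTV array, as was Pde8b. The non-coding RNA Xist had 2 probes called lower in KTR than in wild type cells, and neither was above background on any KTR or pTV array. Only the one with the difference of −2.35 (log2) belongs here, since the other was called higher in KTR than in pTV cells, from readings at the detection limit in both. LOC435366, a predicted transcript with no KTR array above background, completed the 5 genes ranked first by the fitted difference. As lower limits, wild type exceeded KTR cells at least 1.05-fold for Plac8, 1.46-fold for that Xist probe and 1.77-fold for LOC435366, and no limit could be given for Pde8b. Among brighter genes, chosen after their values were seen, Npl, a sialic acid lyase, read −1.08, −1.03 and −0.79 in KTR, −1.36, −1.21 and −0.74 in pTV and −0.35, −0.19 and 0.35 in wild type cells (−0.91 against wild type; adjusted p = 0.00688), so that KTR and pTV arrays overlapped and all lay under the wild type arrays. In the opposite direction, 12 probes were called higher in KTR than in both pTV and wild type cells, of which those with the 5 largest differences from wild type cells follow. Gm784 (current symbol Fndc3c1) read −1.81, −1.50 and −2.03 in KTR, −3.09, −2.96 and −3.09 in pTV and −3.94, −4.46 and −4.80 in wild type cells (2.62 against wild type; adjusted p = 0.000314), so that pTV cells lay between the other groups. 2810003K23Rik read −1.44, −1.52 and −1.41 in KTR and −3.07, −3.13 and −3.16 in wild type cells, and Mmp28, a metalloproteinase of epithelia, read −3.15, −2.11 and −2.41 and −4.15, −4.16 and −3.80. At these 3 genes the lowest KTR array was above the highest wild type array, as at 9.52% of all tested probes. The others were Pthr1 (Pth1r, the parathyroid hormone receptor), with 2 KTR arrays above background, and 4930517K11Rik (Rpl39l). Nts, which encodes neurotensin, lay between the other groups at −2.76, −3.47 and −2.13 in KTR, −0.77, −0.83 and −0.75 in wild type and −5.90, −5.29 and −5.36 in pTV cells, of which none was above background.

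Among genes that were lower in KTR than in pTV cells, the 10 largest differences with all 6 arrays measured began with Esm1, an endothelial proteoglycan, which read −2.46, −1.91 and −1.75 in KTR and 1.05, 1.34 and 1.33 in pTV cells (−3.28 ± 0.12; adjusted p = 6.11e-07). Id4, an inhibitor of basic helix-loop-helix factors, read −1.17, −0.35 and −0.14 against 2.01, 2.81 and 2.65 (−3.04 ± 0.10), and its second probe gave −3.01 ± 0.12. Aldh1a3, which makes retinoic acid, read −1.53, −1.75 and −0.66 against 1.66, 0.49 and 1.83 (−2.64 ± 0.21). For Esm1 and Id4 every KTR array was more than 2 units below every pTV array, and for Aldh1a3 the groups did not overlap either, as at 12.1% of all tested probes with KTR the lower group. Dkk2, a Wnt antagonist, differed by −2.58, Sprr1a and Lor, proteins of the cornified envelope of skin, by −2.57 and −2.14, Stmn4, a tubulin-binding protein, by −2.42, Pmaip1, the pro-apoptotic Noxa, by −2.31, Gria1, a glutamate receptor subunit, by −2.06 and Ctgf (current symbol Ccn2), a matricellular protein, by −2.04. Of these 10 genes, only Id4 was lowered by TNFα in wild type cells (−1.64), and no other passed that test in either direction. The wild type arrays read −2.48, −1.76 and −1.43 for Esm1 and 4.54, 4.69 and 4.99 for Ctgf, and overlapped with the KTR arrays at both genes.

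**Figure D5:**
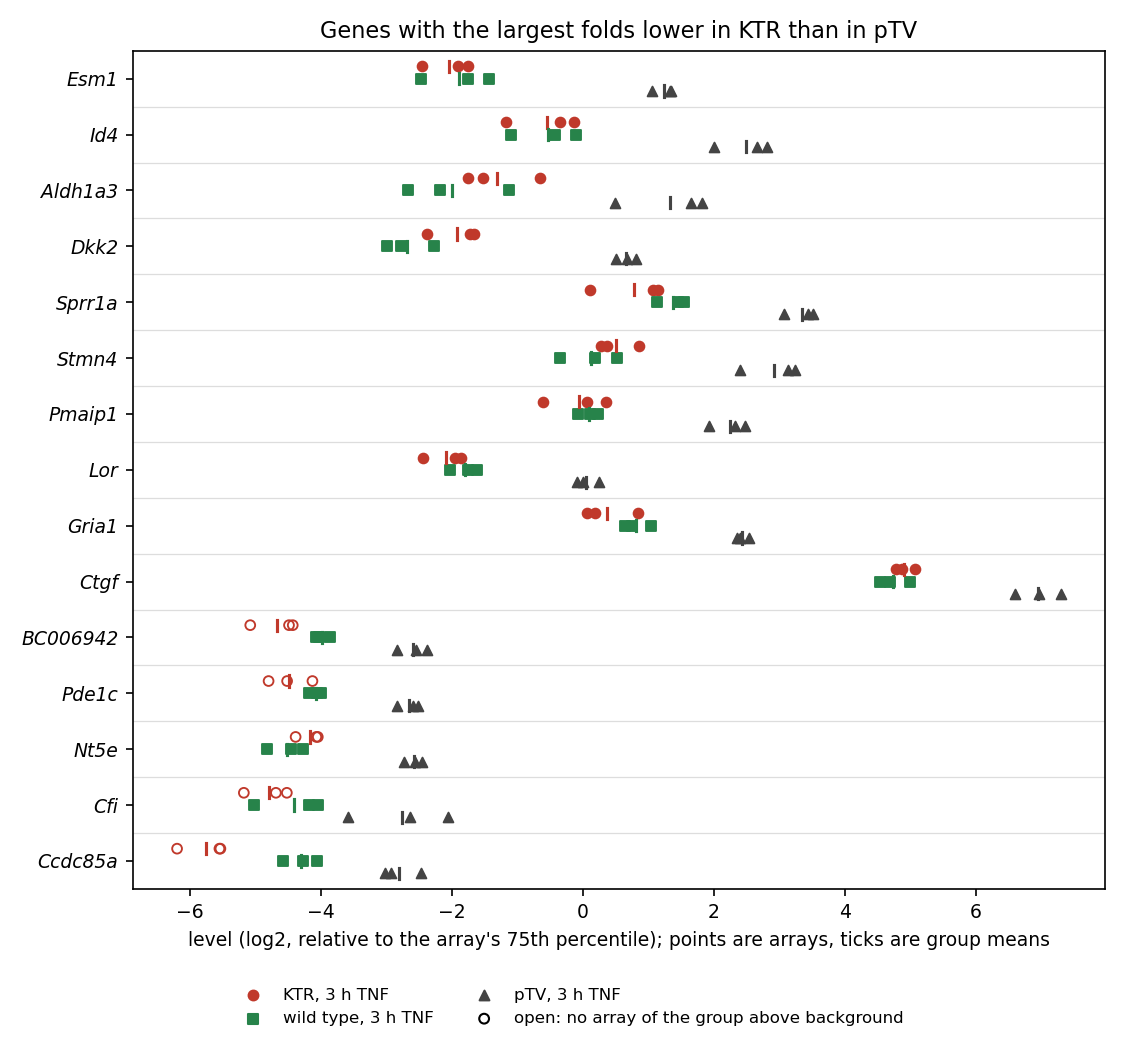
Levels (log2 relative to the array's 75th percentile) of the 15 genes with the largest differences in favour of pTV cells, on each KTR, wild type and pTV array at 3 h of TNFα, ticks being group means. The pTV arrays lie to the right of all KTR arrays at every gene.

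Where no KTR array was above background, the largest lower limits were at BC006942 (at least 3.11-fold), Pde1c, a phosphodiesterase (at least 3.1-fold), Nt5e, the ectonucleotidase CD73 (at least 2.97-fold), Cfi and Ccdc85a (at least 2.78-fold). Nt5e, for example, read −4.39, −4.07 and −4.05 in KTR and −2.73, −2.46 and −2.56 in pTV cells. Of 14 genes for Wnt antagonists and retinoid metabolism, 4 were lower and 0 higher (median −0.56), namely Aldh1a3, Dkk2, Dkk3 (−1.39) and the retinoic acid carrier Crabp1 (−1.09). A few genes were lower in KTR than in both pTV and wild type cells. Asb4, an ankyrin repeat protein, read −2.99, −2.80 and −2.65 in KTR, −0.73, −1.05 and −0.74 in pTV and −0.73, −0.89 and −0.49 in wild type cells, and Lama2, the laminin α2 chain, read −2.59, −2.31 and −2.56, −0.65, −0.76 and −0.67 and −1.23, −1.34 and −1.07. In Asb4 the pTV and wild type arrays overlapped, while in Lama2 wild type cells lay in between. These genes were chosen after their values were seen.

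Structural genes of the fibroblasts differed in both directions. Of 34 matrix genes, 4 were higher (11.8%) and 2 lower (5.88%), against 4.02% and 1.49% of all tested genes (median 0.17). Col1a1 (0.18) and Col1a2 (−0.01), the chains of type I collagen, stayed within 2-fold, whereas Col5a3 read 3.58, 3.70 and 3.48 in KTR and 1.58, 1.33 and 1.57 in pTV cells (2.09 ± 0.09) and Thbs2, an inhibitor of angiogenesis, read −0.86, −1.12 and −0.13 and 1.15, 1.27 and 1.31 (−1.95 ± 0.17). Of 18 contractile genes none passed in either direction by the brightest probe, with a median of 0.00 and a range from −0.85 for Smtn to 0.96 for Acta1. Acta2, smooth muscle actin, differed by 0.82, and 2 of its 5 probes were called higher. Of 32 proliferation genes, 1 was lower and 0 higher (median −0.15). It was Ccnd1, cyclin D1, at 1.91, 2.35 and 2.02 in KTR and 3.07, 3.18 and 3.02 in pTV cells (−1.0 ± 0.08; adjusted p = 4.3e-05), which lies just at the 2-fold limit, and the wild type arrays read 1.84, 2.25 and 2.14. Of 11 genes for prostaglandin synthesis and receptors, 2 were higher (median 0.26), of which Ptges was above background on no KTR or pTV array and Ptgfr read −1.59, −1.86 and −1.20 against −2.95, −4.35 and −3.62 (2.09 ± 0.22).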

How the data were processed

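Total RNA was hybridised in 1 colour (Cy3) to Agilent whole mouse genome arrays. The authors deposited each array's scanner output from Agilent Feature Extraction (version 9.1 per the labels), whose intensity per spot is corrected for background but not scaled between arrays, and their own normalized intensities, which for at least 99.65% of probes were the same values, within 1%, multiplied by a factor for the array (0.931 to 1.20). Here outlier spots were dropped, the 43379 spots averaged to 41174 probes, and the log2 of each intensity taken minus the 75th percentile of its array. A probe was tested if some group, of the 4, had all its arrays well above background, which gave 22032 probes, 19183 of them above it on all 12 arrays. For 4 of these no difference between KTR and pTV could be given.

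The 12 arrays were fitted together in limma 3.58.1 (R 4.3.3, data.table at version 1.17.8), with the replicate number as a block, two-sided tests and p-values adjusted by Benjamini-Hochberg over every tested probe. The number is the slide. The paper reports that the replicates of a sample were isolated on different days. Whether a number stands for the same day in every group is not stated. Deviations from the group means correlated at 0.316 to 0.628 in the 18 same-numbered pairs and at −0.523 to 0.107 in the 36 others. Limits were 2-fold against pTV and 1.8-fold for KTR against wild type and for TNFα, at an adjusted p under 0.05. On simulated arrays with 200 of 21481 probes changed by 1.5 (log2), 191 were recovered for KTR over pTV with 0 false calls, and 161 at a change of 1.1. The number of arrays limits the precision.

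Genes named are Rela, Mmp10, Mmp13, Cfb, Mpa2l and Cxcl10, the 10 largest differences each way among probes measured on all 6 arrays, the 5 largest lower limits each way, the 5 largest each way that also differed between KTR and wild type, the 5 largest called in wild type over pTV and in KTR over wild type but not in KTR over pTV, and examples from the lists. Others were chosen after their values were seen. The arrays to compare and the gene lists were chosen with earlier results of these data known. Names are those of the array files, with current symbols where RefSeq (GRCm38.p6) gave one by accession. Alternatives were normexp, quantile normalization, the deposited normalized intensities, other filters and limits, the fit without the block, with all 14 arrays or with the 6 arrays compared, and each array left out.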

Additional observations from a re-analysis of the deposited data

Results flagged for a closer look

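At 29 probes the effect of KTR differed from that of wild type p65 by the test of the difference itself, KTR over wild type cells at 3 h (log2, limma adjusted p under 0.05 and over 1.8-fold). They are those that passed among the brightest probes of the list genes and among the genes ranked for a difference between KTR and wild type cells. Genes chosen after their values were seen, such as Asb4 (−2.1), Lama2 (−1.28) and Npl (−0.91), also passed but are not counted. Interferon-inducible genes were lower in KTR cells, with differences of −2.21 for Ifi44, −1.89 for Sp100, −1.59 for Oas1f, −1.56 for Oas1a, −1.49 for D14Ertd668e (Phf11d), −1.47 for Phf11, −1.32 for Zbp1, −1.16 for Ifi27, −1.05 for Tap1, −1.02 for H2-D4 and −0.94 for Bst2. The NF-κB inhibitor gene Nfkbie differed by −1.24, the A20 partner gene 9030611K07Rik (Tnip3) by −1.53 and the complement gene Cfb by −0.93.

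Other genes that were lower in KTR than in wild type cells were the matrix gene Efemp1 with −1.80, Nts with −2.0, and the predicted transcripts LOC675624 with −2.39, LOC668139 with −2.02 and LOC435366 with −2.06. The probes of Xist gave −2.35 and −2.26. Plac8 differed by −2.18, Dennd2d by −1.66 and Pde8b by −1.56. Xist, Plac8, Pde8b, Sp100 and LOC435366 were above background on no KTR array, so their differences are inexact. As lower limits, wild type exceeded KTR cells at least 3.85- and 1.46-fold for Xist, 1.05-fold for Plac8, 1.62-fold for Sp100 and 1.77-fold for LOC435366, and none could be given for Pde8b. Genes higher in KTR than in wild type cells were Gm784 with 2.62, 2810003K23Rik with 1.66, Mmp28 with 1.48, Pthr1 with 1.39 and 4930517K11Rik with 1.23. None of these calls was made with normexp, or with the spread estimated from the 6 KTR and wild type arrays alone. Under the latter the lowest adjusted p was 0.0507, and 157 probes were lower and 61 higher at an unadjusted p under 0.05 and the same fold limit.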

How the results depend on the processing

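Of 205 values for named and listed genes in KTR over pTV, 104 neither fell short nor turned in any setting that gave a value (19 or 20). Another 89 fell short of the limits in at least 1 setting and 12 turned in at least 1. The 104 include a probe of Expi that was not called in the main fit (0.91) and passed the limits in 3 settings. Without the replicate block 722 probes were higher and 294 lower in KTR than in pTV cells. Counts for KTR over wild type moved most: 7 probes were higher, 33 lower and 2 interferon-inducible genes lower without the block, 6, 31 and 1 with all 14 arrays and no block, and 0, 0 and 0 with only the 6 arrays compared. With an unadjusted p they were 59, 172 and 22, without a filter on dim probes 1149, 159 and 18, and at the other fold limit 13 probes were higher. Normexp gave 240 higher and 47 lower for KTR over pTV, 221 and 48 for wild type over pTV, 0 and 0 for KTR over wild type (limma; 135 lower and 9 higher at an unadjusted p), 82 and 5 list genes and 0 interferon-inducible genes called lower. Among probes above background on all 12 arrays, 450 were higher and 149 lower in KTR and 486 and 194 in wild type than in pTV cells, and 23 probes and 3 interferon-inducible genes were lower in KTR than in wild type cells. In the settings named, the cause was not tested, except that the last tests fewer probes.

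Leaving out 1 array at a time gave 707 to 768 higher and 301 to 409 lower probes for KTR over pTV, and for KTR over wild type 14 to 62 higher and 35 to 139 lower probes and 3 to 16 interferon-inducible genes called lower. Without KTR replicate 1, 62 were higher and 139 lower, without KTR replicate 2, 43 were lower, and without wild type replicate 1, 2 or 3, 14 were higher and 42, 35 and 43 lower. Interferon-inducible genes called lower numbered 3 without KTR replicate 2 or wild type replicate 1 or 2, and 6 without KTR or wild type replicate 3. The number with a KTR mean below wild type stayed at 70 to 77 of 83 when an array was left out and was 56 of 83 with normexp. The KTR over pTV difference turned, with normexp, to −0.18 for 9030611K07Rik, −0.37 for Dennd2d, −0.17 for Expi, −0.26 for LOC675624, −0.12 for Npl, −0.35 for Plac8, −0.077 for Ptges, −0.21 for Sp100 and −0.035 and −0.48 for Xist. Of these probes only those of Expi and Npl were above background on all 6 arrays. With quantile normalization it turned to −0.054 for Plac8 and −0.02 for Xist. With 1 array left out the difference ranged from −0.095 to 0.32 for the brighter probe of Rela, from −0.055 to 0.15 for Dennd2d and from −0.55 to 0.055 for Pde8b, turning for Rela without KTR replicate 1 (−0.037) or 2 or pTV replicate 1 (−0.053), for Dennd2d without KTR replicate 3 (−0.0055) or pTV replicate 2, and for Pde8b without pTV replicate 2. No scaling moved the median of all probes by over 0.1.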
